A study of Bos taurus with 16 samples.

Results

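The SLC25 genes encode the mitochondrial carrier family, here every gene of the table with a symbol of the form SLC25A followed by a number. The symbols were read from the exon annotation in the deposited table, and each gene was represented by the exon-bearing region of a single gene with the highest mean over all libraries. This gave 38 members of 12040 genes. Of these, 33 members (of 9470 genes) reached a level of 0.5 in at least 4 libraries and were tested. SLC25A10 and SLC25A13 were not analysed here.

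The study sequenced polyadenylated RNA of rumen papillae, finger-like outgrowths that absorb the acids of microbial fermentation, from 16 crossbred steers aged 344 ± 48 days, with 1 library per animal. The steers ate a single corn-based ration without restriction and received no treatment. They were picked so that each combination of high or low body weight gain with high or low dry matter intake was represented by 4 animals, in 4 groups. High-gain, low-intake steers gained more on less feed than low-gain, high-intake steers, by the way they were picked. All p-values measure the spread between these animals' libraries, and no batch is given in the labels.

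Mitochondrial carriers are small proteins of the inner mitochondrial membrane that share a fold of repeated membrane-spanning modules and usually exchange 1 solute for another. They bring ADP, phosphate, keto acids, amino acids, acylcarnitines and cofactors into the matrix and release ATP, citrate and other products. In rumen epithelium, mitochondria oxidise absorbed butyrate and make ketone bodies, so these exchangers sit between short-chain acid uptake and energy supply. No sequences of the members are shown, since the files used here hold none.

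A level is the average depth of reads over the bases of a region. The authors had scaled it so that library totals were almost equal (591.1 to 595.9 Mb of covered bases). Regions with several exons also span the introns between them. That of SLC25A3 has 8342 bases over its exons, that of SLC25A5 only 99 bases of exon 4. Ranks and shares of genes by level therefore depend on the regions as well. The estimated depth was 11.9 to 21.2 M reads per library, averaging 17.5 ± 2.40 at high gain and 14.7 ± 1.46 at low gain (SD, n = 8 each). All 12 markers of squamous epithelium were found, with a summed level of 1299 to 5555. The 3 ketogenic markers summed to 417 to 1679, the 6 smooth muscle markers to at most 96.8, the 6 fibroblast markers to 132 to 899, and the 6 leukocyte markers to 9.30 to 37.5. Transcripts of the mitochondrial genome held 18.3 ± 6.61% of covered bases at high gain and 12.6 ± 4.39% at low gain. In 5 libraries first exons were poorly covered: the median log2 ratio of first-exon to later-exon coverage was -4.71 to -3.41, against -2.27 to -0.94 in the other 11. Of these, replicate 4 belongs to the high-gain, high-intake group, replicates 2, 3 and 4 to the high-gain, low-intake group and replicate 3 to the low-gain, low-intake group. So 4 of the 5 are high-gain libraries, and estimates of single members are also given without them. In such bulk tissue, fewer cells of a type and less RNA per cell cannot be told apart.

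The family spanned a wide range of levels, and few genes carried most of it. Of the 38 members, 9 had a mean of at least 10, 20 a mean of 1 to 10, and 4 passed the filter with a mean under 1. The remaining 5 did not pass. SLC25A6, measured over its exon 1 region, alone held 44.4% of the summed mean level, the top 3 members 64.2%, the top 6 80.6% and the top 10 88.0%. This order differed between the library sets: SLC25A6 averaged 51.3% of the sum in the other 11 libraries but 0.53% in the 5 low in first exons, where SLC25A5 averaged 26.9%. All 33 tested members were above 0 in every library.

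**Figure D1:**
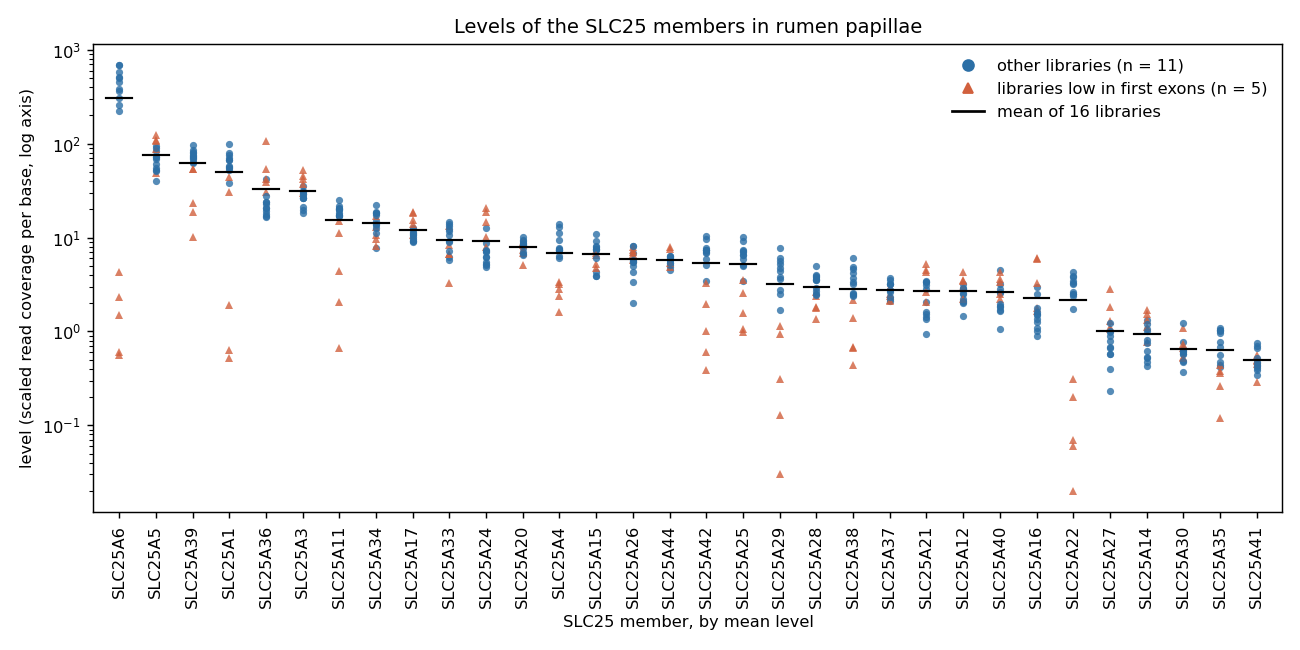
Level of 32 of the 33 tested SLC25 members (log axis, scaled coverage per base) in the 16 libraries, ordered by mean level. Circles are the 11 other libraries, triangles the 5 libraries low in first exons, and black lines the means. SLC25A6 has a mean of 310 with triangles at 0.56 to 4.30, while SLC25A44 and SLC25A20 stay within a narrow range.

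The ADP/ATP carriers, which exchange matrix ATP for cytosolic ADP, included the most abundant member. SLC25A6 was represented by a region over its exon 1 (259 bases, UMD3.1 chrUn_GJ060129:1788-2046). Its level was 261, 381, 305 and 1.48 in high-gain, high-intake steers and 222, 2.34, 0.56 and 4.30 in high-gain, low-intake steers. It was 452, 582, 513 and 364 in low-gain, high-intake steers and 685, 503, 0.60 and 682 in low-gain, low-intake steers. The values fell into 2 ranges with nothing between them: the 5 libraries low in first exons had 0.56 to 4.30 and the other 11 had 222 to 685. The mean log2 level of SLC25A6 differed by -8.13 between these sets, the lowest value among all 9470 tested genes. Since the index that defined the 5 libraries used only genes with at least 6 exons, SLC25A6 with 4 did not enter it. Its region over exons 2 to 4 (chrUn_GJ060129:2302-6660) averaged 29.6 in those 5 libraries and 202 in the others, a log2 difference of -2.93, so the gap was smaller away from exon 1.

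SLC25A5, the ADP/ATP carrier of proliferating tissues, was second with a mean of 76.1, taken from 99 bases of exon 4 (chrX:3701061-3701159). Its level was 84.7, 60.9, 94.8 and 108 in high-gain, high-intake steers, 72.7, 123, 87.4 and 48.5 in high-gain, low-intake steers, 52.4, 39.6, 89.6 and 51.7 in low-gain, high-intake steers, and 54.8, 72.3, 108 and 68.5 in low-gain, low-intake steers. The 4 groups overlapped, and the 5 libraries low in first exons were not lower over these 99 bases (mean 95.1 against 67.5). In the first exon of SLC25A5 they were, with a mean of 0.69 against 19.9. Over the longer region of exons 2 to 4 they were mostly lower too. There the high-gain libraries of the 5 had 20.28 to 26.23, against 25.62 to 43.13 in the other high-gain libraries. The low-gain library of the 5 had 10.48, against 24.53 to 61.8 in the other low-gain libraries. SLC25A4, the ADP/ATP carrier of heart and skeletal muscle, had a mean of 6.93 over 97 bases of exon 2 (chr27:14547662-14547758). It ranged from 1.61 to 3.35 in the 5 libraries and from 6.08 to 14.0 in the others, but over its longer region of exons 2 to 4 the sets averaged 3.45 and 3.37. The skeletal muscle markers summed to 0.54 to 7.02 over the libraries, and their part in the SLC25A4 level was not tested. SLC25A31, the testis form, was listed at 0 in 10 of 16 libraries and reached at most about 1 estimated read. The 3 detected ADP/ATP carriers are close paralogs, so reads of 50 bases may be shared between them, and the authors' handling of such reads is not stated in the sources used here.

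The phosphate carriers were led by SLC25A3, which brings in the phosphate used for ATP synthesis. All 8 exons of SLC25A3 lie in a single region (8342 bases, chr5:63086242-63094583), with a level of 21.4, 18.4, 35.5 and 45.5 in high-gain, high-intake steers, 31.2, 41.9, 30.0 and 37.4 in high-gain, low-intake steers, 26.3, 28.9, 28.9 and 19.6 in low-gain, high-intake steers, and 26.6, 26.6, 52.6 and 30.5 in low-gain, low-intake steers. The range was 18.4 to 52.6, and the highest value belonged to a library low in first exons. SLC25A24, SLC25A25 and SLC25A41 are ATP-Mg/phosphate carriers that adjust the matrix adenine nucleotide pool. Their means were 9.29, 5.17 and 0.491. SLC25A24 was higher in the libraries low in first exons (mean 14.4 against 6.95), whereas SLC25A25 was lower in them (1.95 against 6.63).

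Among the carboxylate carriers, SLC25A1, which exports citrate for fatty acid synthesis, had a mean of 50.0 over exon 7 (131 bases, chr17:74634206-74634336). Its level was 67.0, 67.0, 37.8 and 1.91 in high-gain, high-intake steers, 58.0, 0.64, 30.9 and 44.3 in high-gain, low-intake steers, 56.5, 52.0, 76.2 and 55.8 in low-gain, high-intake steers, and 100.0, 80.6, 0.52 and 70.2 in low-gain, low-intake steers. The values under 2 came from 3 of the libraries low in first exons, but the other 2 such libraries had 30.9 and 44.3, inside or near the range of the rest (37.8 to 100.0). SLC25A11, the oxoglutarate/malate carrier of the malate-aspartate shuttle, averaged 15.5 over exons 1 to 8. There it ranged from 0.67 to 15.2 in the 5 libraries and from 16.9 to 25.0 in the other 11. Its region of exon 8 alone overlapped between the sets, at 4.31 to 17.84 in the 5 and 7.46 to 17.25 in the other 11. SLC25A21, the oxodicarboxylate carrier of lysine breakdown, averaged 2.73. A further region holding exons of both SLC25A21 and PAX9 (chr21:47304704-47312801) had a mean of 45.8, and its coverage cannot be assigned to either gene. SLC25A34 and SLC25A35 averaged 14.2 and 0.628.

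The carriers of amino acids and acylcarnitines were mostly at middle levels. SLC25A20, which moves acylcarnitines into the matrix for fatty acid oxidation, averaged 7.93 and ranged only from 5.09 to 10.1. SLC25A44, a branched-chain amino acid carrier, averaged 5.83 and ranged from 4.51 to 7.87. Over all 16 libraries these genes had the smallest spread of all tested members, with SDs of log2 level of 0.25 and 0.22. Among the libraries with ordinary first exons SLC25A44 was still lowest (0.165). There SLC25A17, SLC25A11 and SLC25A39 (0.172, 0.173 and 0.190) varied less than SLC25A20 (0.204). SLC25A15, the ornithine carrier of the urea cycle, averaged 6.73, and SLC25A12, the aspartate/glutamate carrier of the malate-aspartate shuttle, 2.69. SLC25A22, a glutamate carrier, was at 0.02 to 0.31 in the libraries low in first exons and at 1.73 to 4.29 in the others. SLC25A38, which supplies glycine for haem synthesis, averaged 2.82, and SLC25A29, a carrier of basic amino acids, 3.17. SLC25A47 lies next to SLC25A29 on chromosome 21, with a gap of 27881 bases between their regions, and held 1 estimated read in 1 of 16 libraries. SLC25A2, a second ornithine carrier, and SLC25A48 likewise held 1 estimated read in 1 library each, and SLC25A45 in 2.

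The cofactor, nucleotide and metal carriers filled the rest of the upper ranks. SLC25A39, which imports glutathione, averaged 62.0 over exons 10 to 12 (chr19:44752347-44753232). Its paralog SLC25A40 averaged 2.62 over 96 bases of exon 11 (chr4:32531563-32531658), and this symbol is attached to a further group of exons on chromosome 4 that starts at 32861412. SLC25A36 and SLC25A33, both pyrimidine nucleotide carriers, averaged 32.9 (chr1:129005992-129010902, exon 7) and 9.52. SLC25A17, a peroxisomal carrier of nucleotides and cofactors, averaged 12.1. SLC25A26 (S-adenosylmethionine) and SLC25A42 and SLC25A16 (coenzyme A) averaged 5.92, 5.33 and 2.26. The iron importers SLC25A28 and SLC25A37 averaged 2.99 and 2.74. The uncoupling-protein relatives SLC25A27, SLC25A14 and SLC25A30 were near the low end, with means of 1.01, 0.949 and 0.657.

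The libraries low in first exons stood apart in several members. Of the 33 tested members, 9 did not overlap between the 5 libraries low in first exons and the other 11, and all 9 were lower in the 5. Among them were SLC25A4, SLC25A6, SLC25A11, SLC25A22, SLC25A29, SLC25A38, SLC25A39 and SLC25A42. Over all tested genes, 19.5% were lower without overlap and 3.15% higher, and no member was higher. The mean log2 level was higher in the 5 libraries for 14 of 33 members, against 50.2% of all tested genes. The median log2 difference was -0.18 over the members and 0.01 over all tested genes.

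The 5 libraries were set apart by their first-exon coverage over 1378 genes, so low first exons in them are a description and not a finding. Of 28 members with separate regions for the first exon and for later exons, of which 4 entered that measure, the first-exon region was lower in the 5 libraries in all 28. The same held for 90.7% of the 7989 tested genes with such regions. The best later region of the 28 was lower in 16 and higher in 12. SLC25A36 shows the turn: exon 1 averaged 0.33 in the 5 libraries against 1.49 in the others, and exon 7 averaged 54.6 against 23.0. SLC25A24 had 0.13 against 1.33 in the larger part of exon 1, and 14.4 against 6.95 in exon 10. In SLC25A1 and SLC25A39, by contrast, coverage was lower in the 5 libraries in every region, including the last exons (2.05 against 42.9 for exons 8 and 9 of SLC25A1, and 32.0 against 75.6 for exons 10 to 12 of SLC25A39).

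**Figure D2:**
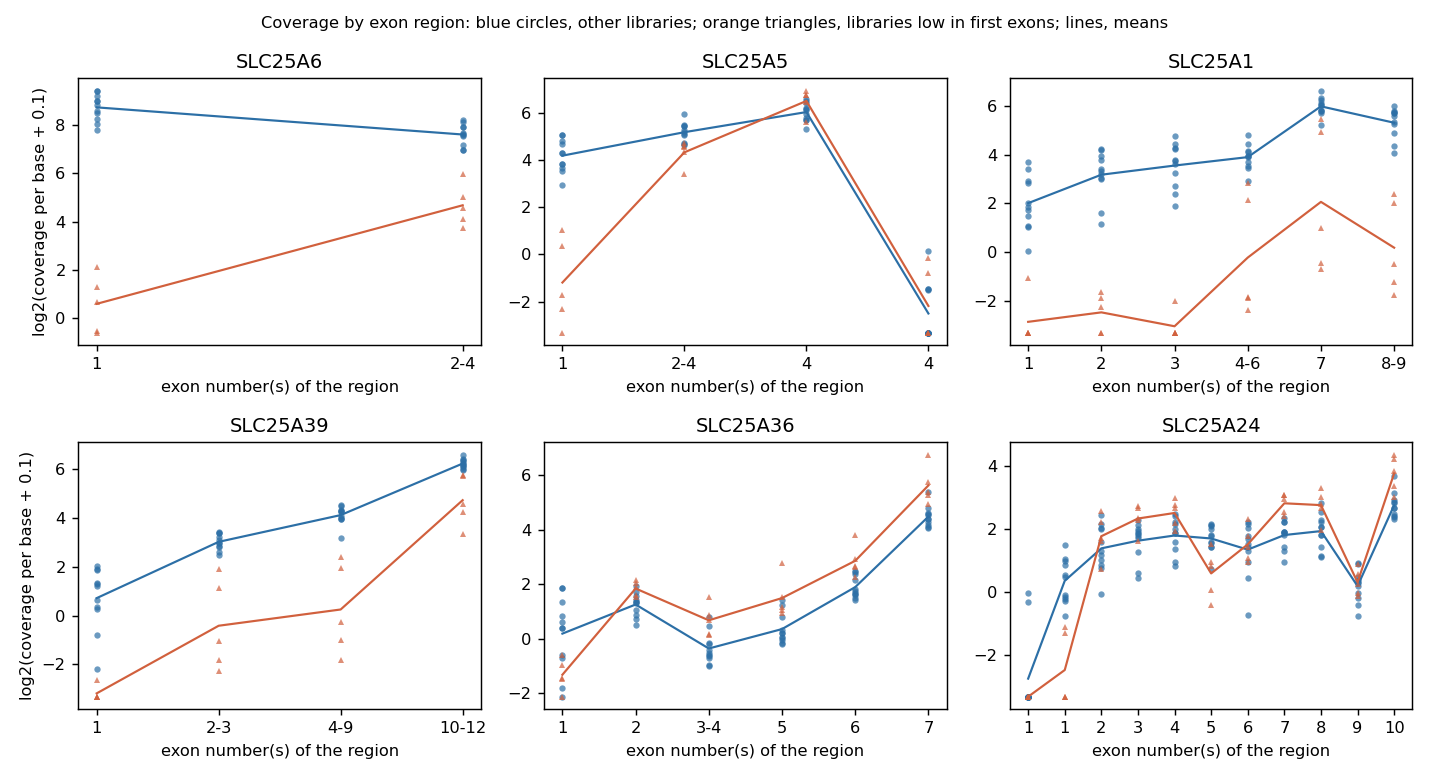
Coverage of every exon region of 6 SLC25 members on the log2(coverage per base + 0.1) scale, in transcript order. Circles and the blue line are the 11 other libraries and their mean, triangles and the orange line the 5 libraries low in first exons. The lines are farthest apart at exon 1 of SLC25A6, cross in SLC25A36 and SLC25A24, and stay apart along SLC25A1 and SLC25A39.

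The spread between animals was close to that of other genes. The SD of log2 level over 16 libraries had a median of 0.66 over the tested members and 0.66 over all tested genes. Among the 11 other libraries it was 0.40 for both. SLC25A6 and SLC25A1 had the largest SDs, 3.96 and 2.44.

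Steers with high and low gain were compared first, with limma over all 9470 genes. SLC25A6 had a mean of 147 ± 161 in high-gain and 473 ± 220 in low-gain libraries (SD, n = 8 each), and SLC25A40 and SLC25A12 averaged higher at high gain, but no member passed an adjusted p of 0.05. None of the 9470 genes did either (0.0%). At an unadjusted p under 0.05, 2 members were higher at high gain (0.982% of all genes) and 0 lower (4.35%). The epithelial markers summed to 2316 to 5555 at high gain and 1299 to 4511 at low gain, and the 5 endothelial markers to 7.03 to 14.47 and 14.51 to 24.83, so the latter did not overlap. The part of either marker set in these values was not tested. The epithelial sum of 1299 came from replicate 3 of the low-gain, low-intake group. The estimate was above 0 for 15 of 33 members, against 46.1% of all genes, and the median log2 difference was -0.04 for the members and -0.05 for all genes. No member's 8 high-gain libraries were all above or all below the 8 low-gain ones (0.0211% of genes higher and 0.0106% lower).

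SLC25A12 had levels of 2.84, 2.83, 3.22 and 4.27 in high-gain, high-intake steers, 2.22, 3.44, 3.52 and 2.98 in high-gain, low-intake steers, 1.99, 2.04, 2.89 and 1.45 in low-gain, high-intake steers, and 2.54, 2.53, 2.22 and 2.10 in low-gain, low-intake steers. All 8 high-gain libraries were above the low-gain median, although the ranges overlapped. The means were 3.17 ± 0.606 and 2.22 ± 0.438, a log2 difference of 0.50 (SE 0.19, limma adjusted p = 0.847). The log2 difference of SLC25A12 was 0.21 in the 11 libraries with ordinary first exons, with a limma adjusted p of 0.768.

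SLC25A40 had levels of 4.56, 3.24, 1.83 and 3.6 in high-gain, high-intake steers, 2.85, 4.31, 3.39 and 2.21 in high-gain, low-intake steers, 2.56, 1.88, 1.65 and 1.95 in low-gain, high-intake steers, and 2.62, 1.69, 2.49 and 1.06 in low-gain, low-intake steers. Here 7 of 8 high-gain libraries exceeded the low-gain median. The log2 difference was 0.67 (SE 0.25, limma adjusted p = 0.847), and these levels rest on a median of 5.90 estimated reads per library. It was 0.65 without the 5 libraries, and 0.21 when the mean over all exon regions was used.

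For SLC25A6 the log2 difference by gain was -3.34 (SE 1.66, limma adjusted p = 0.847), with all 8 high-gain libraries below the low-gain median. In these 2 ranges of values, 4 of the 8 high-gain libraries and 1 of the 8 low-gain libraries made up the lower one. With these 5 left out, SLC25A6 had 222 to 381 at high gain (mean 292 ± 68.2, n = 4) and 364 to 685 at low gain (540 ± 118, n = 7). Here SLC25A6 was lower at high gain, by a log2 difference of -1.04 (SE 0.18, limma adjusted p = 0.0426), as 1 of 65 genes called among 9236 (0.704%), all 65 lower at high gain. The high-gain, low-intake group then keeps a single library, which is assumed to vary like the others. In the same 11 libraries, exons 2 to 4 of SLC25A6 averaged 146 ± 31.7 (123 to 191) and 234 ± 42.5 (188 to 298). That difference of -0.78 did not pass the threshold (limma adjusted p = 0.119), and the mean over both regions gave -0.81 (limma adjusted p = 0.0430), as 1 of 142 genes called among 8729 (1.63%). First-exon coverage also differed by gain within these 11 libraries: the index was -2.27 to -1.54 in the 4 high-gain libraries and -1.62 to -0.94 in the 7 low-gain ones. With the index as a covariate over all 16 libraries, the log2 difference of SLC25A6 was 0.38 (limma adjusted p = 0.711), and 731 genes (7.72%), 3 of 33 members among them, were called. With the mitochondrial transcript share as covariate instead, the log2 difference of SLC25A6 was -1.91 (SE 1.82, limma adjusted p = 0.959). The part of first-exon coverage and of the mitochondrial transcript share in the SLC25A6 difference was not tested beyond these fits. The endothelial markers, whose sum was 7.03 to 14.47 at high gain and 14.51 to 24.83 at low gain, were not tested for a part in it.

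Over exon 2, SLC25A4 followed SLC25A6 in sign (5.05 ± 2.32 at high gain and 8.81 ± 4.04 at low gain, log2 difference -0.72, SE 0.41), and its estimate was 0.16 with the index as covariate. The means of SLC25A4 lay closer over exons 2 to 4, at 3.30 ± 0.331 for high gain and 3.49 ± 0.579 for low gain. SLC25A5 was on the other side (85.0 ± 24.4 and 67.1 ± 22.6, log2 difference 0.35, SE 0.23). Over its longer region of exons 2 to 4 the means of SLC25A5 were 28.7 at high gain and 35.8 at low gain, so its direction depended on the region. Without the 5 libraries the estimates were -0.39 for SLC25A4 and 0.33 for SLC25A5. With all 16 libraries, for both genes the limma adjusted p was 0.847.

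**Figure D3:**
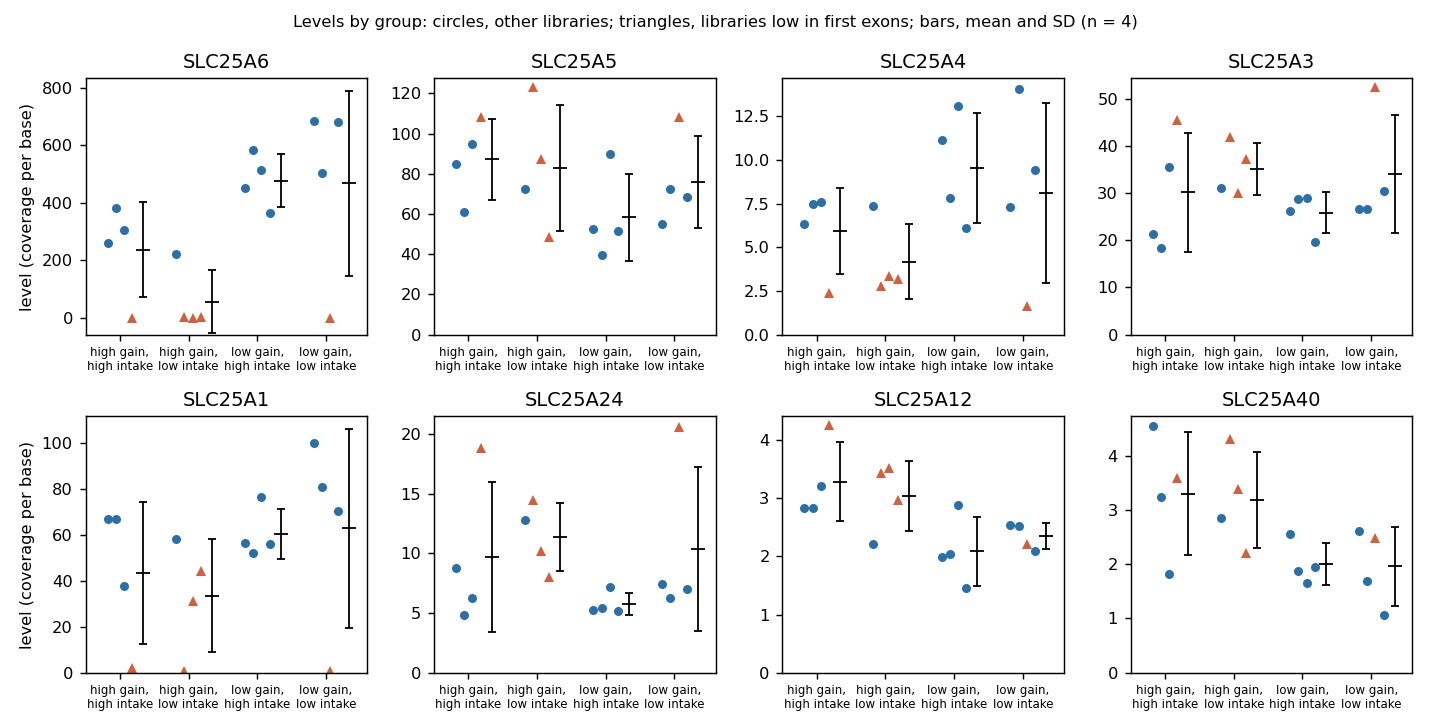
Levels of 8 SLC25 members (linear axes, scaled coverage per base) in the 4 groups. Circles are libraries with ordinary first-exon coverage, triangles the 5 low ones, and bars the mean and SD of the 4 libraries. The triangles of SLC25A6 lie at 0.56 to 4.30, and those of SLC25A24 reach 20.6.

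Intake, the second axis of the design, gave no called member and no called gene (0.0%). No member had an unadjusted p under 0.05, against 8.27% of all genes. SLC25A27, SLC25A24 and SLC25A26 averaged lower at high intake and SLC25A6 and SLC25A28 higher, the 5 smallest p-values in the family. SLC25A24 was 8.75, 4.86, 6.28 and 18.8 in high-gain, high-intake steers, 12.8, 14.5, 10.2 and 8.01 in high-gain, low-intake steers, 5.26, 5.46, 7.17 and 5.14 in low-gain, high-intake steers, and 7.46, 6.26, 20.6 and 7.0 in low-gain, low-intake steers. Its means were 7.72 ± 4.68 and 10.9 ± 4.90, a log2 difference of -0.53 (SE 0.30, limma adjusted p = 0.529), and the highest value on each side was a library low in first exons. SLC25A26 was below the low-intake median in all 8 high-intake libraries (5.09 ± 1.44 against 6.76 ± 1.63, log2 difference -0.43, SE 0.24). SLC25A27 differed by -0.66 (SE 0.37) and SLC25A28 by 0.43 (SE 0.26), each with a limma adjusted p of 0.529. The estimate for SLC25A6 was 2.89 (SE 1.66), and it was 0.05 without the 5 libraries, where SLC25A24 had -0.62, SLC25A26 -0.45, SLC25A27 -0.52 and SLC25A28 0.20. Over the members 15 of 33 estimates were above 0 (49.6% of all genes), and the median was -0.01 for both. No member separated the sides without overlap (0.0211% of genes higher and 0.0528% lower).

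**Figure D4:**
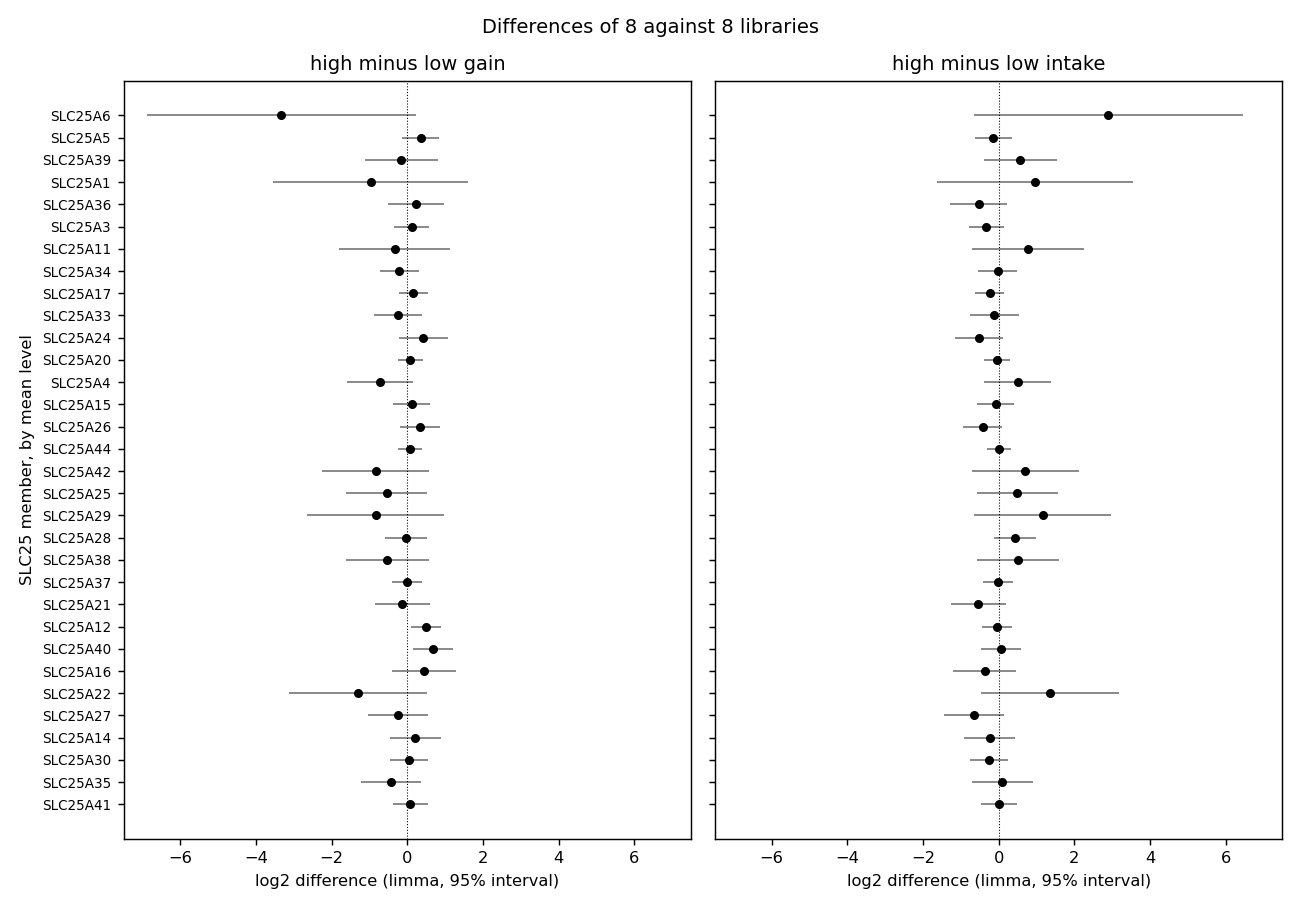
Log2 differences of 32 of the 33 tested SLC25 members between 8 high-gain and 8 low-gain libraries (left) and 8 high-intake and 8 low-intake libraries (right), with 95% intervals from limma. Intervals are widest for SLC25A6, and those of SLC25A40 and SLC25A12 by gain lie above 0 before adjustment.

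The interaction of gain and intake called no member and no gene (0.0%), and 0 members had an unadjusted p under 0.05 (0.528% of all genes, 0.148% higher and 0.38% lower). Estimates were above 0 for 16 of 33 members and 48.8% of all genes. The smallest p-values were those of SLC25A41 (-0.52, SE 0.44) and SLC25A15 (0.53, SE 0.46), with limma adjusted p = 1.00 for both. The member median was -0.05 and that of all genes -0.01.

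The 2 opposite quadrants, high-gain animals on low intake and low-gain animals on high intake, were compared on 4 against 4 libraries. Again no member and no gene was called (0.0%). At an unadjusted p under 0.05, SLC25A24 and SLC25A26 were higher in the high-gain group (4.14% of all genes) and SLC25A6 and SLC25A22 lower (9.4%). SLC25A24 averaged 11.4 ± 2.84 against 5.76 ± 0.951 (log2 difference 0.95, SE 0.42), and SLC25A6 57.2 ± 110 against 478 ± 92.7 (log2 difference -6.23, SE 2.35), with limma adjusted p = 0.367 for both. Groups did not overlap for 4 members that were higher (SLC25A3, SLC25A24, SLC25A26 and SLC25A36, 12.1% of all genes) and 4 that were lower (16.9%), among them SLC25A6, SLC25A22 and SLC25A39. In this comparison 3 of the 4 high-gain libraries, and none of the other group, were low in first exons. Estimates were above 0 for 18 of 33 members and 50.4% of all genes, and the median was 0.07 for the members and 0.01 for all genes. Without the 5 libraries, which leaves 1 library in that group, 0 members and 2 genes were called (0.0217%), both lower. The estimates were then -1.09 for SLC25A6 and 1.15 for SLC25A24. Over all alternative settings, single libraries left out aside, SLC25A6 ranged from -6.23 to -0.26 and SLC25A24 from 0.04 to 1.27.

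The summed level of the family showed how far SLC25A6 carried it. All 38 members summed to 523 ± 191 at high gain and 871 ± 242 at low gain, and to 355 ± 19.8 in the 5 libraries low in first exons against 853 ± 172 in the others. With SLC25A6 taken over its exons 2 to 4 these sums were 466 ± 95.6 and 605 ± 112 by gain, and 382 ± 23.8 and 605 ± 75.0 by first-exon coverage, so the gaps narrowed. With every member taken as the mean over all its exon regions, the sums were 271 ± 92.4 at high gain and 434 ± 122 at low gain. By first-exon coverage they were then 186 ± 25.2 and 428 ± 81.3, so the size of the gaps depended on the regions used. With SLC25A6 over its exon 1 region, the sum among the other 11 libraries was 646 to 764 in the 4 high-gain libraries and 699 to 1137 in the 7 low-gain ones. Without SLC25A6 the sum was 376 ± 37.9 at high gain, 399 ± 41.4 at low gain, 384 ± 36.2 at high intake and 391 ± 45.8 at low intake. It was 353 ± 20.2 in the 5 libraries low in first exons and 403 ± 37.1 in the other 11. Over all libraries this sum of the other 37 members ranged from 333 to 452, while single members moved in opposite directions. SLC25A1 averaged 15.7 in the 5 and 65.6 in the others, SLC25A36 54.6 and 23.0.

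**Figure D5:**
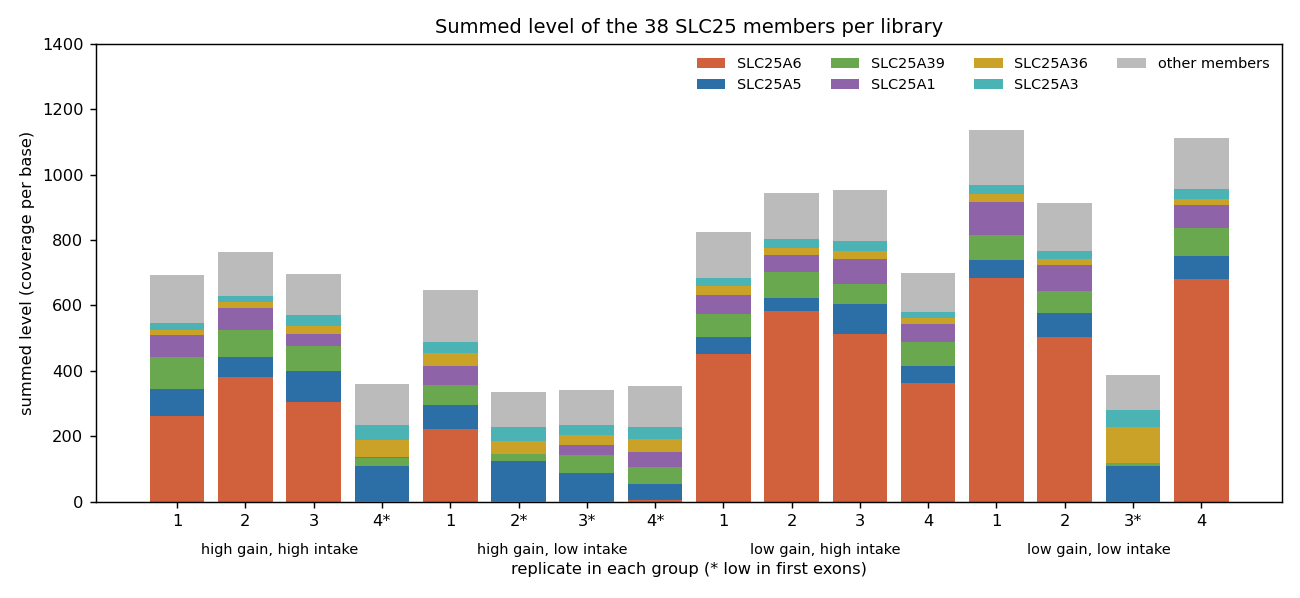
Summed level of the 38 SLC25 members in each library (bars from 0, scaled coverage per base), split into the 6 members with the highest means and the rest. Asterisks mark the 5 libraries low in first exons, whose bars reach 335 to 386 and hold almost no SLC25A6.

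Genes that work beside the carriers were looked at in the same fits, from 4 lists of related genes, and none was called in any of the 4 comparisons. Of the carrier-fold relatives with other names 4 of 8 were tested, of other mitochondrial membrane transporters 16 of 21, of enzymes that use the carried substrates 25 of 33, and of proteins that import carriers 8 of 10. By intake, the unadjusted p was under 0.05 for 1, 4, 1 and 1 of them, all lower at high intake (5.81% of all genes were lower and 2.46% higher). Among them were MTCH2 in the first list, SFXN1, VDAC1 and VDAC3 in the second, ME2 in the third and TIMM8A in the fourth, with VDAC1 named here after its values were seen. By gain, 1 gene was higher (ACLY) and 2 were lower (VDAC2 and ISCU, likewise named afterwards), against 0.982% and 4.35% of all genes. The median log2 differences of the lists by intake were -0.23, -0.22, -0.06 and -0.21, against -0.01 for the SLC25 members and -0.01 for all genes. By gain they were 0.04, -0.17, -0.0098 and 0.12, against -0.04 for the members and -0.05 for all genes.

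In each list, the genes with the smallest p-values by intake were lower in mean at high intake. Of the 8 libraries 1 at high and 4 at low intake were low in first exons, and their part in these values was not tested. ME2, the mitochondrial malic enzyme, averaged 22.2 ± 8.37 at high and 37.5 ± 7.92 at low intake (log2 difference -0.80, SE 0.21). SFXN1, a serine transporter of the inner membrane, averaged 3.46 ± 0.912 and 5.85 ± 1.38 (-0.75, SE 0.21), and VDAC3, an outer membrane pore, 12.7 ± 4.71 and 20.3 ± 4.23 (-0.76, SE 0.26). TIMM8A, an import chaperone for inner membrane proteins, averaged 18.4 ± 8.57 and 30.4 ± 11.7, and TOMM70A, the outer membrane receptor for carrier precursors, 19.5 ± 9.64 and 27.8 ± 10.8. MTCH2, an outer membrane protein of the carrier fold, averaged 28.6 ± 6.51 and 37.2 ± 6.96, and its relative MCART1 1.17 ± 0.317 and 1.75 ± 0.718. The limma adjusted p was 0.529 for each of these 7. MTCH1 of the first list, named here after its values were seen, lay on the other side. It averaged 35.2 ± 5.71 at high and 27.2 ± 10.1 at low intake (log2 difference 0.45, SE 0.24, limma adjusted p = 0.529). By gain, ACLY, which splits the citrate that SLC25A1 exports, averaged 12.5 ± 2.19 at high and 9.51 ± 1.17 at low gain (log2 difference 0.38, SE 0.14, limma adjusted p = 0.847).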

How the data were processed

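Polyadenylated RNA of rumen papillae was read in 16 libraries as single reads of 50 bases, per the labels' protocols. TopHat2 2.08b and the genome build UMD3.1 were used, per the submitters' processing notes. For the annotation release, the coverage tool and the placing of reads with several matches, nothing is stated in the sources used here. The table holds 2351373 regions, of which 113576 carry exons. The authors deposited signal values that equal read coverage per base times a library factor, as the values themselves show: 1 read over its own length is worth 0.56 to 1.00. Also deposited by the authors are a fold column (highest over lowest sample ratio), its log2 value, a p-value and a mark column with other values. None of these was used. Gene levels used no region shared by exons of different genes (523 regions), and only exon coverage of at least 0.5 in 4 libraries was tested.

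Levels were fitted as log2(value + 0.1) with limma 3.58.1 in R 4.3.3 (robust, with trend) as 4 group means, all genes together, two-sided, with Benjamini-Hochberg adjustment and a threshold of 0.05. SE is that of the model, and ± is the SD between animals. Fold changes of low genes are understated on this scale. Because coverage is not a count, no count model was used, and estimated reads describe depth only. Taking the region with the highest mean favours short regions of high coverage. The fits were tested on simulated data with independent noise per gene, without the pattern that the 5 libraries share. There 146 of 200 genes changed by a log2 difference of 2 for gain were recovered (73.0%), with 9 false calls. Members, lists and named genes were chosen with earlier results of these data known. Named genes were the 6 members with the highest mean, a fixed set (SLC25A1, SLC25A3 to SLC25A6, SLC25A10 to SLC25A13 and SLC25A20), the members with the smallest p-values per comparison (5 for gain and intake, 2 for the others), those with the largest and smallest SDs, and up to 2 genes per related list. Other members were described by role after their values were seen. Some genes are not reported here, and they stay in the fits and counts. Alternatives covered the pseudocount, filter, limma options, level definition, scaling, first-exon and mitochondrial covariates, and leaving out libraries. The fits of another level definition in the 11 libraries with ordinary first exons were added after seeing the data.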

Additional observations from a re-analysis of the deposited data

Results flagged for a closer look

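In groups of 4 libraries, 9 of 76 tested sets of values held a library far from the other 3, and 5 of the 9 were libraries low in first exons. For independent groups chance gives about 1 in 20, or 3.8 of 76. These sets share libraries, and some of their members were picked by SD or p-value in the same data. The 9 therefore cannot be set against the 3.8. SLC25A6 was 222 in high-gain, low-intake replicate 1, against 0.56 to 4.30 in the other 3, and the summed level of the family was 646 there, against 335 to 354. SLC25A4 was 7.37 in the same library, against 2.80 to 3.35. In this group the library that stood apart was the only one with ordinary first-exon coverage.

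Replicate 3 of the low-gain, low-intake group, which is low in first exons, stood apart for 4 members. SLC25A36 was 108 there, against 17.1 to 24.0, SLC25A24 20.6, against 6.26 to 7.46, and SLC25A3 52.6, against 26.6 to 30.5. SLC25A20 was lower there, at 5.09 against 8.32 to 8.74. The same library had the lowest epithelial marker sum of all libraries, 1299, and the highest fibroblast marker sum, 899. In the libraries with ordinary first exons these sums were 3043 to 5555 and 132 to 310. The part of tissue make-up in the values of this library was not tested. In high-gain, high-intake replicate 4, SLC25A36 was 53.6 (others 16.8 to 22.9). In low-gain, high-intake replicate 3, a library with ordinary first-exon coverage, SLC25A24 was 7.17 (others 5.14 to 5.46).

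The region with exons of both PAX9 and SLC25A21, which entered no gene level, had a mean of 45.8 over the 16 libraries (31.8 to 88.3).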

How the results depend on the processing

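No paired analysis was possible because replicates were numbered here by accession order only. Beside the reported fits, 30 other settings were run. The number of members called stayed at 0 for intake, the interaction and the opposite quadrants under all 30. For gain it was 1 (SLC25A6) without the 5 libraries low in first exons (0.704% of all genes), 1 (SLC25A6) when the mean over all exon regions was used without them (1.63%), and 3 of 33 with the first-exon index as covariate (7.72%). It was 0 under the remaining settings, and leaving out single libraries gave 0 to 0. The 3 were SLC25A11 and SLC25A39, higher by 1.15 and 0.82, and SLC25A27, lower with -0.92 (limma adjusted p = 0.0425, 0.0292 and 0.0472). When replicate 3 of the low-gain, low-intake group was left out, 71 genes (0.754%) but 0 members were called for gain.

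Some log2 differences by gain changed sign. With the index as covariate SLC25A6 was 0.38 and SLC25A4 0.16. SLC25A5 was -0.22 over all exon regions and -0.21 over them without the 5 libraries. SLC25A11, -0.34 in the reported fit, was 0.37 over its region without exon 1, 0.30 there without the 5 libraries, 0.11 with the mitochondrial share as covariate, and -0.94 to 0.00094 when single libraries were left out. SLC25A39 (-0.16) was 0.034 after centring, 0.011 with the mitochondrial share, and -0.53 to 0.067 without single libraries (0.034 without high-gain, low-intake replicate 2). SLC25A27 (-0.24) was 0.23 after quantile normalization. The causes were not tested.

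The median log2 difference of the members in the opposite quadrants was 0.40 when libraries were centred on the median of all tested genes, which moved the median of all genes to 0.33. By gain, centring moved the all-gene median to 0.15, and 19 of 33 members were then above 0. By intake it moved to -0.14, with 12 of 33 above 0. The median for the interaction was 0.23 without low-gain, low-intake replicate 3, and -0.14 to 0.23 over single libraries left out. Depth limits SLC25A40, SLC25A21, SLC25A4, SLC25A26 and SLC25A38, whose short regions held a median of 5.90 to 17.5 estimated reads, and the 5 members that were not tested. It also limits SLC25A35, SLC25A41 and SLC25A30, whose longer regions held a median of 14.8, 19.8 and 21.7 estimated reads.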
